A study of Mus musculus with 30 samples.

Results

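The AP-1 subunits described here are the products of 7 mouse genes, Fos, Fosb, Fosl1, Fosl2, Jun, Junb and Jund, taken as the rows of the deposited count table that carry these symbols, out of 54146 genes in the table. Reads were counted for 6 of the 7. Jund had 0 reads in every library. The libraries were made from the epithelium of the small intestine of female C57BL/6 mice of 8 to 10 weeks, kept for 1 week on the semi-purified diet AIN93G, which is free of dietary ligands of the aryl hydrocarbon receptor (AHR). Mice were gavaged with 10 µg of ICZ, indolo[3,2-b]carbazole, an AHR ligand, in corn oil, or with vehicle, and the epithelium was taken 12 h later. Sequential EDTA dissociation released the epithelium of each mouse in 5 fractions, named F1 to F5 in the order of their labels, and each was sequenced from the 3′ ends of its mRNA. The 3 ICZ mice gave 14 libraries, with none analysed here for F1 of replicate 3, and the 3 vehicle mice gave 15. All mice are labelled WT, for wild type, so ICZ and vehicle mice share the genotype, the diet, the strain and the gavage.

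AP-1 is a dimer of basic leucine zipper proteins that binds DNA at short palindromic sites. Jun proteins can pair with themselves or with Fos proteins, while Fos proteins need a Jun partner. Fos, Fosb, Jun and Junb are textbook immediate early genes, whose mRNAs appear within minutes of a growth factor or stress signal without new protein synthesis and are short-lived, whereas Fosl1 and Fosl2 usually follow later. In the intestine AP-1 is known for its part in the proliferation of the crypt and in the response to injury.

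All 7 genes are protein coding, and their positions are given on GRCm38 from GENCODE M21. Fos (ENSMUSG00000021250.13) lies at chr12:85473890-85477273 on the plus strand. Fosb (ENSMUSG00000003545.3) lies at chr7:19302696-19310051 on the minus strand. Fosl1 (ENSMUSG00000024912.5) lies at chr19:5447547-5455946 and Fosl2 (ENSMUSG00000029135.10) at chr5:32135801-32157842, both on the plus strand. These 4 genes of the Fos family have 4 exons each in their first annotated transcript, whereas the 3 Jun genes have 1 exon. Jun (ENSMUSG00000052684.4) lies at chr4:95049034-95052222 and Junb (ENSMUSG00000052837.6) at chr8:84974484-84978718, both on the minus strand. Jund (ENSMUSG00000071076.6) lies at chr8:70698949-70700616 on the plus strand.

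Because libraries hold tags of mRNA 3′ ends and the strand setting of the counting is not given in the sources used here, genes that overlap a member on the other strand bear on its count. Junb shares its last 351 bases with the end of Prdx2, a peroxiredoxin gene on the opposite strand that had 40832 reads in the 29 libraries, against 21087 for Junb. Prdx2 itself had a log2 fold change of -0.02 ± 0.12 (SE) between F5 and F1 of vehicle mice, with an edgeR adjusted p of 0.930. Jun shares 689 bases at its 5′ side with the antisense gene Junos, which had 252 reads in total. Fosl1 shares 2767 bases with Ccdc85b, which had 9 reads. Jund holds 919 bases of the antisense gene Gm11175 within it, and both genes had 0 reads. The part of these overlaps in the counts was not tested. With 0 reads, a count of up to 3 reads per library cannot be told from none, so no level of Jund is given.

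The promoters of the 4 subunits that changed together most closely across the fractions (Fos, Fosb, Jun and Junb) are shown beside that of Fosl2, which followed another course. Each stretch is the 150 bases before the RefSeq start on GRCm38.p6, written in the direction of the gene. Capitals mark TGACG, the core of a cAMP response element, and TGACATCA, a variant AP-1 site, on either strand. The strict AP-1 site TGACTCA was searched too and has no match in these stretches; none of the 3 motifs overlaps another there, and TGACTCA occurred in 2.84% of all stretches of this length.
Fos, 150 bases before the start, chr12:85473740-85473889, plus strand: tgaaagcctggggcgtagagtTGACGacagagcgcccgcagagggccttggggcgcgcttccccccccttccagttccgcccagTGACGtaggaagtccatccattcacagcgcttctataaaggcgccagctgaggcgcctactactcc
Fosb, 150 bases before the start, chr7:19310046-19310195, minus strand: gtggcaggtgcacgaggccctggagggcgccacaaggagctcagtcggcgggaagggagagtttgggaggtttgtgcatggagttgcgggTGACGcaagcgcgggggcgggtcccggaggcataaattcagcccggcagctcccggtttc
Jun, 150 bases before the start, chr4:95052223-95052372, minus strand: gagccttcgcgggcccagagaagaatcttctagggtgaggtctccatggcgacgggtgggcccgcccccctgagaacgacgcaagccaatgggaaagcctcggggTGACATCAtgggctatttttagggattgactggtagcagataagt
Junb, 150 bases before the start, chr8:84978749-84978898, minus strand: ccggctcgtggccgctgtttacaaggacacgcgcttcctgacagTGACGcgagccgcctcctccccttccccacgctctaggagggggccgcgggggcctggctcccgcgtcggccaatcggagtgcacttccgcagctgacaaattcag
Fosl2, 150 bases before the start, chr5:32136322-32136471, plus strand: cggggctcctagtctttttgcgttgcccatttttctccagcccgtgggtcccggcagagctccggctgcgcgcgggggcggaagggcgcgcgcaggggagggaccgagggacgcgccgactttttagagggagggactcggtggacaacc

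Fos had 2 matches of TGACG, starting 129 and 66 bases before the start, Fosb had 1 at 60 bases and Junb had 1 at 106 bases. Of 32851 promoter stretches of the same length, 13.3% held TGACG. Jun had TGACATCA, which starts 45 bases before the start, and 2.32% of all stretches held that motif. The Fosl2 stretch held none of the 3 motifs, but its RefSeq start lies downstream of the GENCODE start given above, so that stretch falls inside the annotated gene. TATAAA was found in Fos alone of the 5 shown, 33 bases before the start, against 7.57% of all stretches, and the CArG box, the binding motif of serum response factor, in none of them, against 0.916%. GCGTG, the core bound by AHR with its partner ARNT, occurred at 2 places in Junb, both on the opposite strand, and in none of the other 4, while 20.5% of all stretches held it. A match describes letters of a window and does not show binding, and a missing match shows only that the letters are not in this window.

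Gene reads per library ran from 4359673 to 7819837 over the 29 libraries (median 6351137). Levels are given in CPM, which are reads of a gene scaled to a common library size, with library sizes adjusted by TMM. The treatment was visible in Cyp1a1, a classical AHR target, at 8.27 to 99.9 CPM over the ICZ libraries and at 0 to 0.191 CPM over the vehicle libraries. Markers of absorptive enterocytes summed to between 11026 and 43109 CPM and those of crypt cells to between 404 and 1790 CPM. Secretory cell markers summed to between 10621 and 26465 CPM, with 12 of the 13 listed genes detected in each library. Only the goblet cell mucin gene Muc2 of that list was at 0 reads throughout. Leukocyte markers summed to between 88.6 and 702 CPM and stromal, muscle, endothelial and red cell markers to between 8.09 and 208 CPM. ICZ replicate 1 had an F5 library in which the 10 most abundant genes held 54.3% of gene reads, while the median library had 26.8%. The labels do not place the fractions along the axis from crypt to villus. A lower level in a fraction can come from fewer cells of a type or from less mRNA per cell, which cannot be told apart here. Fractions released in sequence also differ in the time spent in dissociation, and the part of that time in the levels was not tested.

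The first comparison asks how the subunits change along the fractions. In vehicle mice, 5 of the 6 subunits with reads were higher in F5 than in F1: Jun, Fos, Fosb, Junb and Fosl1. The same test called 14.9% of 13164 genes higher in F5. The median log2 fold change of the 6 subunits was 2.02, against 0.02 over all genes tested. Jun had the smallest p of all genes tested in this comparison. Fosl2 was the exception, with a difference that did not pass the test.

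Jun, the founding member of the family that Fos proteins pair with, stood at 803, 1036 and 1388 CPM in F5 of vehicle replicates 1, 2 and 3, against 138, 205 and 288 CPM in F1 of the same mice. All 3 mice rose by similar steps on the log2 scale, between 2.27 and 2.54, and the fractions did not overlap. The share of all genes whose F5 and F1 libraries do not overlap was not counted, in vehicle or in ICZ mice. The log2 fold change of Jun was 2.40 ± 0.16 (SE), with an edgeR quasi-likelihood adjusted p of 8.3e-08. Junb, a Jun protein that activates transcription less than Jun at many sites, had 142, 209 and 219 CPM in F5, against 62.6, 111 and 112 CPM in F1 of vehicle mice. The F5 libraries all lay above the F1 libraries. The log2 fold change of Junb was 1.03 ± 0.12 (SE), with an edgeR adjusted p of 1.75e-05.

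Fos, the archetypal inducible partner of Jun, had 477, 594 and 741 CPM in F5, against 121, 198 and 297 CPM in F1 of vehicle mice. The lowest F5 library stood well above the highest F1 library, and replicate 3 was highest in both fractions. Its log2 fold change was 1.64 ± 0.15 (SE), with an edgeR adjusted p of 2.27e-06. Fosb, whose product is a close relative of Fos and whose splice variants are not separated by these counts, had 354, 439 and 621 CPM in F5, against 29.8, 42.0 and 106 CPM in F1 of vehicle mice. The log2 fold change of Fosb was 3.18 ± 0.35 (SE), larger than those of Jun, Junb and Fos, with an edgeR adjusted p of 2.05e-04.

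Fosl1, also called Fra-1, a Fos protein without the transactivation domain of Fos, was barely counted outside the last fractions. The reads of the vehicle mice added to 1, 1, 4, 18 and 121 from F1 to F5. In F5 its level was 3.22, 5.06 and 9.16 CPM, against 0, 0 and 0.146 CPM in F1. The depth-adjusted ratio of F5 over F1 was 122, with an exact 95% counting interval of 21.5 to 4858, since a single read carries the F1 value. The edgeR log2 fold change of Fosl1 was 6.59 ± 0.89 (SE), above that of Fosb, with an adjusted p of 6.36e-05. Fosl2, also called Fra-2, showed a shallow curve: its mean in vehicle mice was 83.4, 67.2, 64.3, 66.5 and 93.2 CPM from F1 to F5. The F5 values of 79.7, 105 and 94.5 CPM overlapped the F1 values of 84.9, 84.7 and 80.7 CPM, and the log2 fold change was 0.17 ± 0.12 (SE), with an edgeR adjusted p of 0.339.

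**Figure D1:**
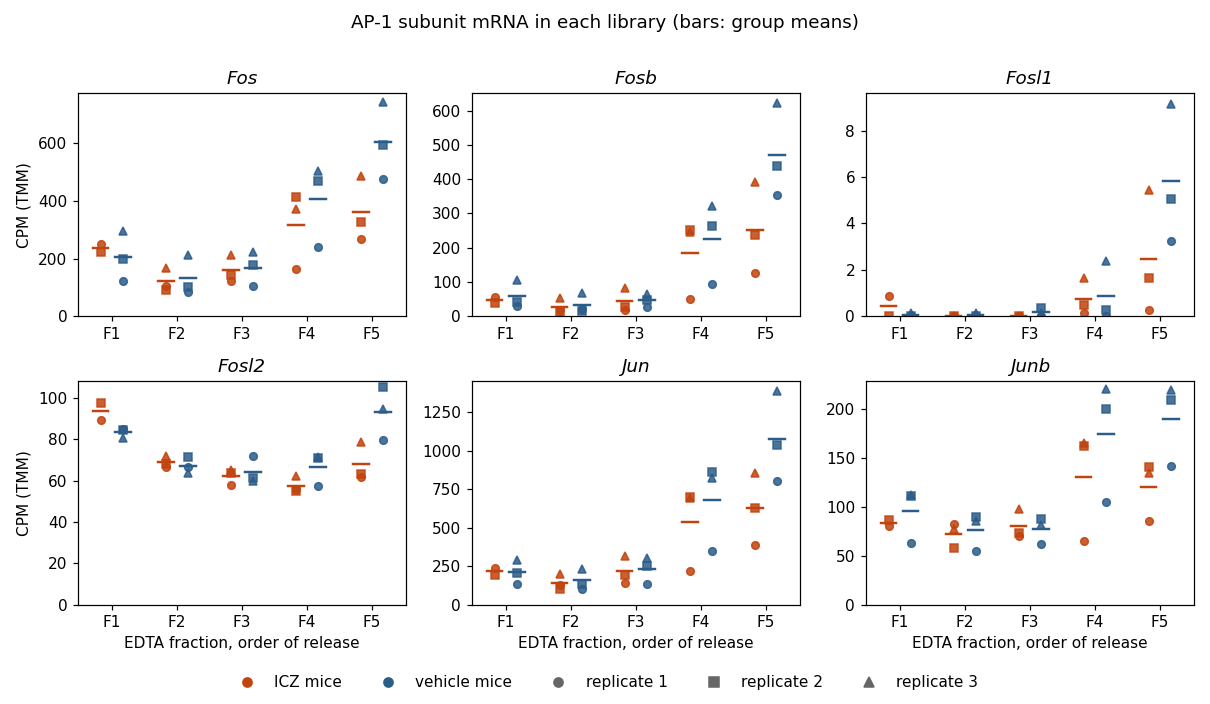
Level of each AP-1 subunit with reads, in CPM on a linear axis from 0, by fraction, with ICZ libraries left and vehicle libraries right within a fraction; each point is a library, the marker shape gives the replicate number and the bar is the group mean. Jun in vehicle mice lies between 138 and 288 CPM in F1 and between 803 and 1388 CPM in F5, while Fosl2 stays between 54.9 and 105 CPM over all libraries.

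In ICZ mice the contrast of F5 with F1 rests on 2 F1 libraries. Jun was higher in F5 and Fosl2 was lower, and the other 4 subunits did not pass the test. The background was 16.5% of 13328 genes higher and 16% lower. The median log2 fold change of the 6 subunits was 0.79, against 0.04 over all genes. Jun had 389, 630 and 858 CPM in F5 of ICZ mice, against 238 and 194 CPM in F1. Every F5 library stood above both F1 libraries, and the log2 fold change was 1.19 ± 0.37 (SE), with an edgeR adjusted p of 0.0369. The adjusted p of Jun was 0.0770 without ICZ replicate 2, 0.0707 without ICZ replicate 3, 0.0956 without the F5 library of ICZ replicate 1 and 0.0567 without the mouse as a block, and it was 6.43e-04 without ICZ replicate 1.

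Fosl2 had 61.9, 63.3 and 78.9 CPM in F5 of ICZ mice, against 89.6 and 97.6 CPM in F1. All F5 libraries lay below both F1 libraries, a pattern whose share over all genes was not counted. The log2 fold change was -0.51 ± 0.12 (SE), with an edgeR adjusted p of 0.00336. Without ICZ replicate 2 the adjusted p was 0.192. Fos had 267, 326 and 486 CPM in F5 against 249 and 222 CPM in F1 of ICZ mice, and its log2 fold change of 0.35 ± 0.27 (SE) had an edgeR adjusted p of 0.347. Fosb had a log2 fold change of 1.76 ± 0.59 (SE) with an edgeR adjusted p of 0.0553, and DESeq2 gave it an adjusted p of 0.0134. Without ICZ replicate 2 its edgeR adjusted p was 0.0128. For Junb the log2 fold change was 0.39 ± 0.30 (SE), with an edgeR adjusted p of 0.345. Without ICZ replicate 1, whose F5 library stood apart in the share of its most abundant genes, Junb passed with an adjusted p of 0.00698 (log2 fold change 0.55) and Fosl1 with 0.0151. Fosl1 had 49 reads in F5 and 4 in F1 of ICZ mice, a depth-adjusted ratio of 7.51. Its exact 95% counting interval of 2.75 to 28.7 covers counting error only and ignores which mouse the reads come from. Of the F5 reads, 35 came from replicate 3, which has no F1 library here. Replicate 1 had 4 reads in F1 and 1 in F5, and replicate 2 had 0 in F1 and 13 in F5. The edgeR adjusted p of Fosl1 was 0.378. Whether the course along the fractions differs between ICZ and vehicle mice is tested further on.

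**Figure D2:**
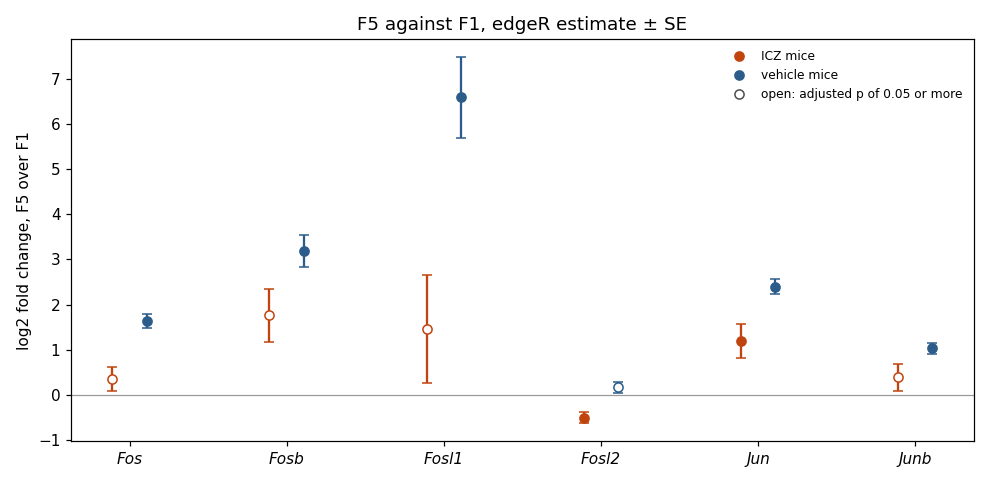
Log2 fold change of F5 over F1 for the 6 AP-1 subunits with reads, in ICZ mice (left of each pair) and vehicle mice (right), as edgeR estimates with SE bars; filled points passed an adjusted p of 0.05. In vehicle mice 5 subunits passed and Fosl2 did not, at 0.17; in ICZ mice Jun passed at 1.19 and Fosl2 at -0.51, and the Fosl1 estimates rest on 4 and 1 reads in F1.

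Taking both treatments together, with the mouse as a block, successive fractions were compared. In F2 against F1, Fos and Fosl2 were lower in F2, against a background of 4.94% of 14067 genes lower. Fos fell by 0.89 on the log2 scale, with an SE of 0.21 and an edgeR adjusted p of 0.0107. It was lower in F2 in 3 of 3 vehicle mice and in both ICZ mice with an F1 library. Fosl2 fell by 0.38 on the log2 scale, with an SE of 0.10 and an adjusted p of 0.0128, again in all 5 mice. Without ICZ replicate 2 the adjusted p were 0.0804 for Fos and 0.0959 for Fosl2. Fosb and Jun had log2 fold changes of -1.06 and -0.63 with adjusted p of 0.0610 and 0.0765, and DESeq2 called 4 subunits lower in this step.

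Between F3 and F2 none of the subunits passed, against 0.0213% of genes called in either direction, which is 3 genes, while 1022 genes had an unadjusted p under 0.05. Fos, Fosb, Jun and Junb had log2 fold changes between 0.07 and 0.55 there, and no test compared one step with another. Most subunits passed at F4 against F3, where Fos, Fosb, Jun and Junb were all higher in F4 and only 0.675% of genes were. Fosb had the largest difference of these 4, a log2 fold change of 2.22 ± 0.33 (SE, adjusted p 0.00132). Jun followed at 1.43 ± 0.22 (adjusted p 0.00132), Fos at 1.14 ± 0.20 (adjusted p 0.00372) and Junb at 0.90 ± 0.16 (adjusted p 0.00307), all by edgeR. Fos, Fosb and Jun were higher in F4 than in F3 in 6 of 6 mice and Junb in 5 of 6. The mice numbered 1 had low levels in F4 in both groups: Jun stood at 220 CPM in F4 of the ICZ mouse and 352 CPM in F4 of the vehicle mouse, against 691 to 863 CPM in F4 of the other 4 mice. With the treatment in place of the mouse in the model, none of the 6 subunits passed in this step, and Junb had an adjusted p of 0.0583 without vehicle replicate 2 and 0.0586 without ICZ replicate 2.

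In F5 against F4, Fosl1 and Fosl2 were higher in F5, and 0.711% of genes were. The log2 fold change of Fosl2 was 0.39 ± 0.09 (SE, edgeR adjusted p 0.0198), and it was higher in F5 in 6 of 6 mice. Fosl1 had 49 reads in F5 and 12 in F4 of ICZ mice, and 121 in F5 and 18 in F4 of vehicle mice, and its adjusted p was 0.0112. Fos, Fosb, Jun and Junb had log2 fold changes of 0.46, 0.87, 0.53 and 0.07 here, with edgeR adjusted p between 0.146 and 0.897. In vehicle mice Fos, Fosb and Jun were higher in F5 in 3 of 3 and Junb in 2 of 3. In ICZ mice it was 2 of 3 and 1 of 3. Neither Fosl1 nor Fosl2 passed when the mouse was left out of the model. Without ICZ replicate 3 neither passed, at adjusted p of 0.0590 and 0.0930, Fosl1 was at 0.0703 without vehicle replicate 3, and Fosl2 was at 0.0648 and 0.0588 without vehicle replicates 1 and 2.

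**Figure D3:**
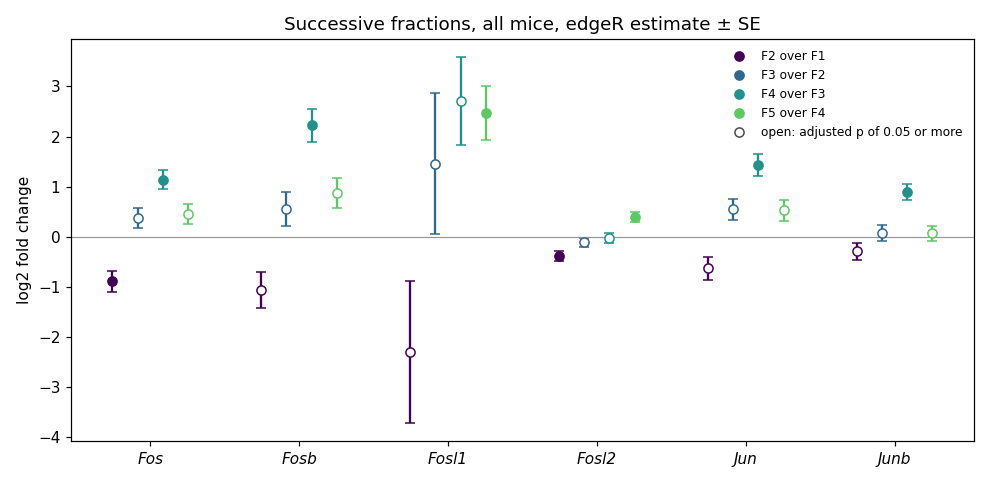
Log2 fold change between successive fractions for the 6 AP-1 subunits with reads, over all mice with the mouse as a block, as edgeR estimates with SE bars; filled points passed an adjusted p of 0.05. Fos, Fosb, Jun and Junb are filled at F4 over F3, with values of 0.90 to 2.22, and Fosl1 and Fosl2 at F5 over F4.

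The makeup of the subunit reads shifted along the fractions. Jun took 43.6% ± 1.6 of the reads of the 7 genes in F5 of ICZ mice (SD, n = 3) and 43.9% ± 1.1 in F5 of vehicle mice (SD, n = 3), against 31.8% ± 2.1 (n = 2) and 32.1% ± 0.5 (n = 3) in F1 of the same groups. Fosb took 16.8% ± 3.2 in F5 of ICZ mice and 19.2% ± 0.93 in F5 of vehicle mice, against 6.96% ± 1.4 and 8.46% ± 3.1 in F1. The shares of Fosl2, Fos and Junb were lower in F5. Fosl2 had 5.07% ± 1.4 in F5 against 13.9% ± 2.0 in F1 of ICZ mice, and 3.93% ± 0.74 in F5 against 13.9% ± 5.2 in F1 of vehicle mice. Fos had 25.6% ± 2.8 in F5 against 34.8% ± 0.049 in F1 of ICZ mice, and 24.9% ± 0.78 in F5 against 30.7% ± 2.9 in F1 of vehicle mice. Junb had 8.69% ± 1.6 in F5 against 12.4% ± 1.6 in F1 of ICZ mice, and 7.84% ± 0.83 in F5 against 14.8% ± 2.4 in F1 of vehicle mice. The 4 genes of the Fos family together took 47.7% ± 2.5 in F5 of ICZ mice and 48.2% ± 0.81 in F5 of vehicle mice, against 55.7% ± 0.47 and 53.1% ± 2.2 in F1. The highest F5 library, at 49.2%, lay below the lowest F1 library, at 50.7%. All 7 genes together made up 0.0683% to 0.347% of gene reads in F5, against 0.0413% to 0.0842% in F1. These shares compare fractions and not genes, since overlaps with other genes can bear on a count and Jund had 0 reads.

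The second comparison asks whether ICZ changed the subunits. Without the block none of the 6 passed, in any fraction or in the sum of F2 to F5. The replicate number as a block pairs the ICZ and vehicle mice of one number, a pairing taken from these same counts and not stated in the labels. With that block Jun, Fos and Junb were lower in ICZ mice in the summed fractions. Every subunit with reads was lower in the ICZ mouse than in the vehicle mouse of the same number in 3 of 3 pairs of these sums. The share of all genes lower in every pair was not counted. The subunits are not separate results either, since Fos, Fosb, Jun and Junb correlated at 0.886 to 0.983 across the libraries.

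In the sum of F2 to F5, Jun had 205, 433 and 496 CPM in ICZ replicates 1, 2 and 3, against 339, 587 and 715 CPM in the vehicle mice of the same numbers. Fos had 155, 255 and 304 CPM in ICZ mice, against 222, 345 and 433 CPM in vehicle mice. Junb had 74.7, 114 and 116 CPM in ICZ mice, against 90.3, 150 and 156 CPM in vehicle mice. In all 3 genes the groups overlapped, since replicate 1 was low in both groups, and each ICZ mouse was below its vehicle counterpart. Fosb had 46.5, 145 and 186 CPM in ICZ mice, against 120, 196 and 282 CPM in vehicle mice. Fosl2 had 60.7, 63.5 and 71.6 CPM in ICZ mice, against 70.5, 78.6 and 74.0 CPM in vehicle mice, and Fosl1 averaged 0.798 ± 0.81 CPM and 1.79 ± 1.2 CPM (SD, n = 3 each). The groups of these 3 subunits overlapped too.

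Without the block, the log2 fold changes of ICZ over vehicle in the sums were -0.49 ± 0.31 for Fos, -0.53 ± 0.40 for Jun, -0.38 ± 0.24 for Junb, -0.67 ± 0.59 for Fosb and -0.19 ± 0.09 for Fosl2 (SE), with edgeR adjusted p between 0.846 and 0.903. The number of genes called was 0 of 15497, a background of 0%, while 886 genes had an unadjusted p under 0.05 and DESeq2 called 13. Cyp1a1 did not pass there either, with an adjusted p of 0.825. The median log2 fold change of the 6 subunits was -0.51, against 0.01 over all genes. With the replicate block the log2 fold changes were -0.56 ± 0.07 for Jun (adjusted p 5.13e-04), -0.48 ± 0.06 for Fos (adjusted p 7.69e-04) and -0.37 ± 0.06 for Junb (adjusted p 0.0108). The blocked fit called 0.742% of genes lower in ICZ mice. Fosb, Fosl1 and Fosl2 had adjusted p of 0.378, 0.0775 and 0.204 in it. With F5 left out of the sums the blocked log2 fold changes were -0.29 for Jun, -0.24 for Fos and -0.23 for Junb, with adjusted p of 0.0634, 0.150 and 0.195, and Fosb passed instead, at -0.38 with an adjusted p of 0.0387. Without the pair numbered 2, the blocked adjusted p of Fos was 0.0646 and that of Junb 0.249, and without the pair numbered 3 that of Junb was 0.0628. With the F5 libraries of both mice numbered 1 left out of their sums, Jun, Fos and Fosb passed and Junb had an adjusted p of 0.0613.

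By fraction, the estimates lay furthest from 0 in F5. There Jun had 389, 630 and 858 CPM in ICZ mice, against 803, 1036 and 1388 CPM in vehicle mice. Fos had 267, 326 and 486 CPM in ICZ mice, against 477, 594 and 741 CPM in vehicle mice, and the groups of both genes overlapped by 1 library. Fosb had 126, 236 and 392 CPM in ICZ mice, against 354, 439 and 621 CPM in vehicle mice, with the same kind of overlap. Junb and Fosl2 were lower in ICZ mice without overlap, as were 5.21% of the 12244 genes tested in F5, while 2.78% were higher: Junb had 85.1, 141 and 134 CPM in ICZ mice, against 142, 209 and 219 CPM in vehicle mice, and Fosl2 had 61.9, 63.3 and 78.9 CPM in ICZ mice, against 79.7, 105 and 94.5 CPM in vehicle mice. The two-sided exact permutation p of both was 0.1, the smallest that 3 mice against 3 can give. All 6 subunits were lower in the ICZ mouse of each pair in F5, and the share of all genes with this pattern was not counted.

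The F5 log2 fold changes of ICZ over vehicle were -0.71 ± 0.25 for Fos, -0.75 ± 0.30 for Jun, -0.63 ± 0.22 for Junb, -0.88 ± 0.36 for Fosb, -0.41 ± 0.18 for Fosl2 and -1.15 ± 0.70 for Fosl1 (SE). Their unadjusted p lay between 0.0183 and 0.137, and after adjustment over 12244 genes by edgeR all were 1.00. With the replicate block the adjusted p in F5 lay between 0.0878 and 1.00, so no subunit passed in either fit. The background was 0% in F4 and in F5, where 349 and 342 genes had an unadjusted p under 0.05, 0.0324% in F1, 0.0165% in F2 and 0.00815% in F3, and no subunit was called in any fraction. In F1 to F4 the log2 fold changes of the 5 subunits tested lay between -0.40 and 0.21, with edgeR adjusted p between 0.826 and 0.999. Fosl1 did not pass the filter on low counts in those fractions. Fosl2 in F1 ran the other way from F5, with 89.6 and 97.6 CPM in ICZ mice against 84.9, 84.7 and 80.7 CPM in vehicle mice, which did not overlap, at an edgeR adjusted p of 0.995. Of 12335 genes tested in F1, 10.2% were higher in ICZ mice without overlap and 9.67% lower.

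**Figure D4:**
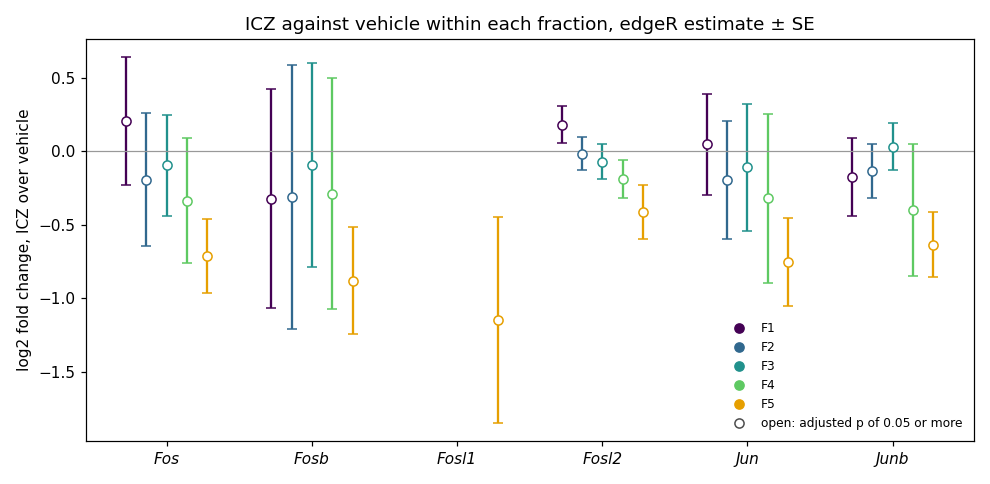
Log2 fold change of ICZ over vehicle within each fraction for the AP-1 subunits, without a block, as edgeR estimates with SE bars; no point passed an adjusted p of 0.05, and Fosl1 was tested in F5 only. The F5 estimates of all 6 subunits lie below 0, between -1.15 and -0.41, and those of Fosl2 step down from 0.18 in F1 to -0.41 in F5.

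Differences in the ICZ effect between fractions were tested over the 29 libraries, keeping the mouse as a block. The 4 treatment by fraction terms together called 0.00711% of 14067 genes and no subunit, with edgeR adjusted p between 0.889 and 0.949. A slope of the ICZ effect over fraction number called 0.0142% of genes and no subunit. All 6 slopes were negative, with -0.15 ± 0.04 per fraction for Fosl2 (unadjusted p 1.6e-04, adjusted p 0.236) and -0.27 ± 0.07 for Fos (unadjusted p 5e-04, adjusted p 0.288). Jun had a slope of -0.26 ± 0.08 and an adjusted p of 0.534. Without ICZ replicate 2 the adjusted p of the slope was 0.00482 for Fos and 0.00742 for Jun, and without vehicle replicate 1 it was 0.0268 for Fosl2. The smaller rise of the subunits between F1 and F5 in ICZ mice was thus not shown to differ from that in vehicle mice.

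Markers of other cells moved along with the same contrasts. In F5 the stromal, muscle, endothelial and red cell list of 14 genes summed to 43.8, 46.4 and 208 CPM in ICZ mice in rising order, against 13.0, 14.3 and 58.2 CPM in vehicle mice. In F1 the list summed to between 13.5 and 22.5 CPM in ICZ mice and to between 12.5 and 30.6 CPM in vehicle mice. In F5 against F1 of ICZ mice, 5 of its 9 tested genes were higher in F5, against 16.5% of all genes tested. In vehicle mice the filter on low counts left 4 of its genes, of which 0 were called, so the calls of both groups cannot be compared. Crypt markers summed to between 782 and 1790 CPM in F5 of ICZ mice and to between 998 and 1770 CPM in F5 of vehicle mice, against 413 to 432 CPM and 404 to 703 CPM in F1 of the same groups. Enterocyte markers summed to between 13042 and 19854 CPM in F5 of ICZ mice and to between 11026 and 23421 CPM in F5 of vehicle mice, against 41096 to 43109 CPM and 31358 to 41552 CPM in F1 of the same groups. Of 13 enterocyte markers 11 were lower in F5 than in F1 in ICZ mice and 11 in vehicle mice, with median log2 fold changes of -1.31 and -1.21. Over all genes tested, 16% were lower in F5 in ICZ mice and 13.2% in vehicle mice. In F5 leukocyte markers came to between 149 and 402 CPM in ICZ mice and to between 166 and 217 CPM in vehicle mice. In the sum of F2 to F5, where 3 subunits were lower with the block, leukocyte markers summed to 227, 163 and 139 CPM in ICZ replicates 1, 2 and 3, against 235, 216 and 334 CPM in the vehicle mice of the same numbers. All 10 leukocyte markers tested had negative log2 fold changes there without the block, with a median of -0.58, and 0 passed. In F2 the median of the 8 tested was -1.41, again with 0 positive and 0 called. Of 12 secretory markers tested in F5, 12 had positive log2 fold changes of ICZ over vehicle, with a median of 0.49. In the sum of F2 to F5 without the block, 11 of 12 were positive, with a median of 0.20. In both comparisons 0 secretory markers passed. No gene of these lists was at 0 in every library except Muc2. The part of these cells in the AP-1 values was not tested.

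Other genes of the pathway were counted in F5 against F1 of vehicle mice, the contrast in which most subunits rose, where 14.9% of all genes tested were higher and 13.2% lower; their lists were chosen with earlier results of these data known. Of the basic leucine zipper partners of AP-1, 3 of 10 tested were higher in F5 and 3 lower. Atf3, a stress-induced partner of Jun, rose by a log2 fold change of 2.94 ± 0.29 (SE, edgeR adjusted p 6.12e-05). Maff, a small Maf protein, rose by 1.53 ± 0.27 and Atf4, the effector of the integrated stress response, by 0.70 ± 0.12. Of 18 MAP kinase cascade genes upstream of AP-1, 2 were higher and 5 lower. Mapk3, which encodes ERK1, fell by 0.72, Mapk8, which encodes the Jun kinase JNK1, fell by 0.61 and its activator Map2k4 fell by 0.52, whereas Map2k6, an activator of p38, rose by 1.20 ± 0.28 (SE).

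Among the factors that bind the Fos and Jun promoters, Srf, the serum response factor, was the only one of 11 tested to pass, at a log2 fold change of 1.29 ± 0.31 (SE, edgeR adjusted p 0.00976). Of the other immediate early genes, 15 of 17 were higher in F5 and 0 lower, with a median log2 fold change of 1.91. Ier2 rose by 2.15 ± 0.16, Nr4a2 by 2.04 ± 0.22, Rhob by 1.91 ± 0.16 and Btg2 by 1.86 ± 0.15 (SE). Egr2 of this list had 0 reads in every library. Of 10 genes for the turnover of AP-1 mRNA and protein, 5 were higher and 1 lower. Zfp36, whose product binds AU-rich elements and speeds the decay of many early response mRNAs, rose by 0.98 ± 0.12 (adjusted p 2.88e-05), and its relatives Zfp36l2 and Zfp36l1 by 1.04 ± 0.18 and 0.57 ± 0.13.

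Of 16 listed genes known as AP-1 targets, 8 passed the filter on low counts, and of these 6 were higher in F5 and 0 lower. They include the ligands of the EGF receptor Hbegf at a log2 fold change of 2.33 ± 0.23, Ereg at 2.60 ± 0.49 and Areg at 1.67 ± 0.19, and the cyclin Ccnd1 at 1.12 ± 0.20 (SE). All 8 tested heat shock genes were higher in F5, with a median log2 fold change of 1.42. Hspa1a and Hspa1b, near-identical copies whose reads cannot be assigned with certainty, stood at 4.69 ± 0.43 and 3.88 ± 0.25. At the step of F4 against F3, where the 4 subunits rose, 13 of 18 other immediate early genes and 4 of 8 heat shock genes were higher, and 0 of either list was lower. Over all genes tested, 0.675% were higher there. In that step 0 of 11 crypt markers and 0 of 9 stromal markers passed, and 1 of 13 enterocyte markers fell, against 0.355% of all genes. All 11 crypt markers had positive log2 fold changes there, with a median of 0.21, as did 7 of 9 stromal markers, with a median of 0.39. The 13 enterocyte markers had a median of -0.35, with 1 positive. The part of these cells in the values of that step was not tested. In F5 against F1 of ICZ mice, 11 of 17 other immediate early genes were higher and 2 lower. There 3 of 7 tested AP-1 targets were higher and 0 lower, and 8 of 8 heat shock genes were higher. Over all genes tested in that contrast, 16.5% were higher and 16% lower. In the sum of F2 to F5, ICZ against vehicle, 0 genes of these lists passed without the block, and 1 of 18 other immediate early genes had a positive log2 fold change.

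Across the 29 libraries the log2 CPM of Fos, Fosb, Jun and Junb ran closely together, with Pearson correlations between 0.886 and 0.983. Fosl1 correlated with these 4 at 0.764 to 0.851, although many of its libraries are at or near 0, and Fosl2 with the other 5 at 0.201 to 0.399. The points share mice, fractions and library scaling, so these are descriptions. Of 8610 genes with at least 5 CPM on average, Egr1, another immediate early transcription factor, had the highest correlation with Jun, at 0.987, and with Fosb, at 0.977. Hbegf was closest to Fos, at 0.956, and Btg2 to Junb, at 0.950. Dusp1, a phosphatase that inactivates MAP kinases, came next for Fosb, at 0.973, and Rhob for Jun, at 0.977. Ubald1 was closest to Fosl1, at 0.915, and Pard6b, a polarity protein, to Fosl2, at 0.845, followed by Klf4, a factor of differentiated epithelium, at 0.771.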

How the data were processed

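The authors deposited 1 table of whole-number counts of reads per gene, not normalized. BWA 0.7.17-r1188, SAMtools 1.10, HTSeq 0.11.2, FastQC 0.11.2 and the build GRCm38.p6 (mm10) are named per the submitters' processing notes; neither the annotation and strand setting nor any molecular identifiers are stated there. Libraries were made with a QuantSeq 3′ kit, per the labels' protocols. Lines that name no gene, 38.4% to 48.4% of reads per library, stayed out of library sizes and tests. Gene identifiers matched GENCODE M21 in 54079 cases without their version.

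Counts were fitted with edgeR 4.0.16 in R 4.3.3 (filterByExpr, TMM, robust quasi-likelihood F test), and p-values were adjusted over all genes tested by Benjamini-Hochberg, with a threshold of 0.05. F5 against F1, the steps and the treatment by fraction tests had the mouse as a block; ICZ against vehicle had none, with F2 to F5 added per mouse. SE is the size of the log2 fold change divided by the root of F. Log2 CPM used a prior count of 2. Floors of 3 reads and 95% intervals cover counting error only. Alternatives were TMM against relative log expression, DESeq2 1.42.0, limma 3.58.1 with voom, no filter, the block, each mouse or the F5 library of ICZ replicate 1 left out, and F2 to F4 summed. The fits were tested on simulated data.

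The labels give both groups replicates 1 to 3, without saying what a number stands for; the titles also number the mice after WT, alike in both groups for replicates 2 and 3 but not for replicate 1. Deviations from group means in the sums correlated at 0.380, 0.244 and 0.466 between mice of the same number, and between -0.420 and -0.0248 otherwise. Deviations within a group cancel out, so these correlations are not independent of each other. The numbers were taken to pair the mice from these same counts, and the blocked p-values do not allow for that choice. Over 28 replicate pairs of libraries the chi-square per degree of freedom was 4.74 or more, so each counted as 1 sample; p-values measure the spread between these samples.

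Named are the 7 members, up to 4 genes of smallest p per list where a list has calls (1 of them is not reported here), and the 3 genes nearest to each member among those of at least 5 CPM; Prdx2, Junos, Ccdc85b, Gm11175, Cyp1a1, Muc2, Egr2 and any example outside this rule were picked with their values in view. The members and lists were chosen with earlier results of these data known. Promoters are from the RefSeq table, which matched 6 members, and were searched on both strands for the 6 motifs named in the text.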

Additional observations from a re-analysis of the deposited data

Results flagged for a closer look

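One library carries no stated treatment or fraction in its labels and entered no comparison, yet it held 8041 reads of the 7 AP-1 genes. Jun had 3195 reads, Fos 2095, Fosb 1342, Junb 847, Fosl2 558, Fosl1 4 and Jund 0, of 7484796 reads assigned to genes. A count of 0 allows at most 3 reads, so 6 of the 7 genes were above that limit, and no control library matches this one.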

How the results depend on the processing

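The 5 subunits higher in F5 than in F1 of vehicle mice passed under every alternative run, and the 0 subunits called between ICZ and vehicle mice in F1 to F4, and in the sums, stayed 0 under each alternative run except with a replicate block in the sums. With the replicate block 3 subunits fell in the sums, 1 with F2 to F4 summed (Fosb, which is not among those 3), and 3 with the F5 libraries of both replicate 1 mice left out (Jun, Fos and Fosb); without one pair at a time it was 1 to 4, namely 4 without replicate 1, 1 without replicate 2 and 2 without replicate 3. The alternatives that join the block with another change were chosen after seeing the data. The block changed no other call between ICZ and vehicle mice. With the mouse left out as a block, 1 subunit was called in F5 against F1 of ICZ mice (against 2), 1 in F2 against F1 (against 2), 0 in F4 against F3 (against 4) and 0 in F5 against F4 (against 2). With no filter on low counts 4 were called in F2 against F1, 3 in F3 against F2, 5 in F5 against F4, 1 between ICZ and vehicle mice in F5, 3 for the 4 treatment by fraction terms and 3 for the slope. DESeq2 called 4 in F2 against F1 and 1 in F5 against F4, where limma voom also called 1. Leaving out 1 mouse, or the F5 library of ICZ replicate 1, gave 1 to 4 subunits in F5 against F1 of ICZ mice, 0 to 3 in F2 against F1, 0 to 2 in F5 against F4 and 0 to 2 for the slope. The cause of these shifts was not tested. 

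No log2 fold change that passed a test changed its sign, and those below did so without passing in the main analysis. ICZ against vehicle turned to 0.42 for Fosb and 0.018 for Junb in F1 with the replicate block, and to 0.011 for Fosl2 in F2 with no filter on low counts. With 1 mouse left out, ICZ against vehicle ran in F1 from -0.078 to 0.58 for Fos, -0.66 to 0.42 for Fosb and -0.20 to 0.35 for Jun; in F2 from -0.52 to 0.33 for Fos, -1.22 to 0.66 for Fosb, -0.058 to 0.013 for Fosl2, -0.51 to 0.24 for Jun and -0.33 to 0.0042 for Junb; in F3 from -0.36 to 0.16 for Fos, -0.98 to 0.26 for Fosb, -0.12 to 0.017 for Fosl2, -0.47 to 0.15 for Jun and -0.13 to 0.14 for Junb; in F4 from -0.65 to 0.16 for Fosb and -0.63 to 0.054 for Jun. Likewise the slope ran from -1.21 to 0.039 for Fosl1, F5 over F1 in ICZ mice from -1.04 to 6.44 for Fosl1, F4 over F3 from -0.077 to 0.046 for Fosl2 and F5 over F4 from -0.0082 to 0.15 for Junb. With no filter the median of all genes moved to 0.22 in F5 against F1 of ICZ mice, so fold changes under that setting are relative to it. Depth limits Fosl1, at 0 to 4 reads per group in F1 to F3, and Jund, at 0; 3 mice a group limit the other subunits, and no paired fit within F1 could use replicate 3.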
